A study of Mus musculus with 11 samples.

Results

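Of the 27567 genes named on a whole-genome mouse array, 6 whose products act in the fusion of myoblasts and in the building and upkeep of muscle fibres were followed here. They were Tmem8c (now Mymk), Smyd1, Klhl30, Klhl41 (formerly Kbtbd10), Hfe2 (now Hjv) and Dysf. They were chosen by name, from the gene name or older synonym of each probe, and all 6 had a probe, 7 probes in all. Total RNA was measured on 11 single-colour Agilent arrays. The cells were cardiac progenitors, described in the series design as mesoangioblasts, which are vessel-associated progenitor cells. They were derived from the atrium, ventricle or aorta of mice lacking beta-sarcoglycan (KO-labelled, 5 arrays) or of wild-type mice (WT-labelled, 3 arrays), and C2C12, a mouse myoblast line that fuses into myotubes in culture, was the myogenic control (3 arrays). Per the labels, the KO progenitors form skeletal muscle fibres on differentiation and the WT progenitors form beating cardiomyocytes. The age, sex and strain of the mice, the null allele, cell passage and whether cells were growing or differentiating at harvest are not given in the sources used here.

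Myoblasts become fibres by recognising each other, adhering and merging their membranes. Myomaker, the product of Tmem8c, is a membrane protein needed on the fusing cells. Inside the new fibre, chaperones and kelch-like proteins help thick and thin filaments assemble and keep them stable, and ferlins such as dysferlin reseal the surface membrane after injury. Beta-sarcoglycan, absent in the mutant mice, belongs to the complex that ties that membrane to the dystrophin cytoskeleton.

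Arrays of the same group and region on slides 1 and 3 were closer to each other than repeated spots within an array, with a ratio to spot noise of 0.613 to 0.716 against at least 2.59 for the other pairs. They were averaged and counted as 1 sample. This left 8 samples: KO-labelled ventricle, aorta and atrium, WT-labelled atrium, ventricle and aorta, C2C12 sample 1 (slides 1 and 3) and C2C12 sample 2 (slide 2). Slides 1 and 3 held the KO-labelled samples and slide 2 the WT-labelled samples, so slide and genotype were joined by C2C12 alone. The labels do not say which samples came from separate animals or cultures, so p-values cover only the spread among the samples at hand. That spread may be technical, and within each genotype it runs across heart regions. From 49.0 to 62.0% of the probes on an array read well above background, and precision is limited by how few arrays there are. A level is log2 of a probe's processed signal with its array's 75th percentile subtracted, so a level of 0 is that percentile. Levels can be compared between samples for 1 probe, not between probes.

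Sgcb, the gene of beta-sarcoglycan, did not check the labels. Its tested probe read 2.99, 2.34 and 2.64 in KO-labelled ventricle, aorta and atrium and 1.82 to 2.21 in the WT-labelled samples, 0.63 higher in KO-labelled samples (SE 0.21, limma adjusted p = 0.071). Where its probes lie relative to the deleted part is not given in the sources used here, so the genotypes are given as labelled. Skeletal muscle markers set the groups apart: the linear levels of 11 markers, each relative to the 75th percentile, summed to 189 in KO-labelled ventricle, 105 in atrium and 50.4 in aorta, 0.574 to 2.71 in WT-labelled samples, and 270 and 109 in C2C12 samples 1 and 2. In WT-labelled samples 7 of the 11, among them Myog, Myf5, Myf6 and Cdh15, were well above background on no array. The 10 cardiomyocyte markers summed to 0.441 to 0.722 in WT-labelled samples, with Myh6, Ryr2, Actn2, Myl2 and Pln above background on none of their arrays. In KO-labelled samples they summed to 0.319 to 2.92 and in C2C12 to 4.55 to 8.86. Endothelial markers summed to at most 0.0691 in any sample. The 4 blood markers on the array summed to 1.09 to 2.24 in WT-labelled samples. They summed to 0.0858 to 0.141 in KO-labelled and 0.135 to 0.143 in C2C12 samples. Of these 4, 2 were above background on every WT-labelled array, 1 on every KO-labelled array and 2 on every C2C12 array. The pan-leukocyte marker Ptprc was above background on no array. Fibroblast markers summed to 142 to 247 in WT-labelled, 245 to 278 in KO-labelled and 280 to 321 in C2C12 samples. Smooth muscle and pericyte markers summed to 34.8 to 171 in WT-labelled, 163 to 302 in KO-labelled and 327 to 354 in C2C12 samples. Epicardial markers summed to 8.51 to 94.8 in WT-labelled, 2.08 to 6.71 in KO-labelled and 3.68 to 3.90 in C2C12 samples. In bulk RNA, fewer cells of a type and less RNA per cell cannot be told apart. The part of cell composition in the differences below was not tested.

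Of the 6 genes, Klhl30 and Klhl41 were higher and Smyd1 lower in KO-labelled than in WT-labelled cells, and 4 (Tmem8c, Klhl30, Klhl41 and Hfe2) were lower in WT-labelled cells than in C2C12. In KO against WT, 3 of the 5 members tested were called, beside 29.7% of all 15002 genes tested. Of these, 2 were higher, beside 13.7% of genes, and 1 was lower, beside 16.1%. In this comparison Klhl41 was well above background only on KO-labelled arrays, which alone let it be tested. In WT against C2C12, 4 of 6 were called, beside 27% of 15807 genes, and all 4 were lower, beside 13.2% of genes lower. Of these, Klhl41 and Hfe2 were above background on no WT array and passed the filter only through C2C12 and KO-labelled arrays. Their calls are therefore not support independent of the high readings there. In KO against C2C12 none of the 6 passed, beside 1.25% of genes. By unadjusted p, 5 of those 6 were under 0.05, beside 12.5% of genes. Dysf was called in no comparison. Called means a Benjamini-Hochberg adjusted p under 0.05 in limma, over all genes tested. Klhl30 was the only member whose call in KO against WT held with the slide set as a block, a fit that sets each genotype against the C2C12 of its own slides and that called 891 genes in place of 4461.

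**Figure D1:**
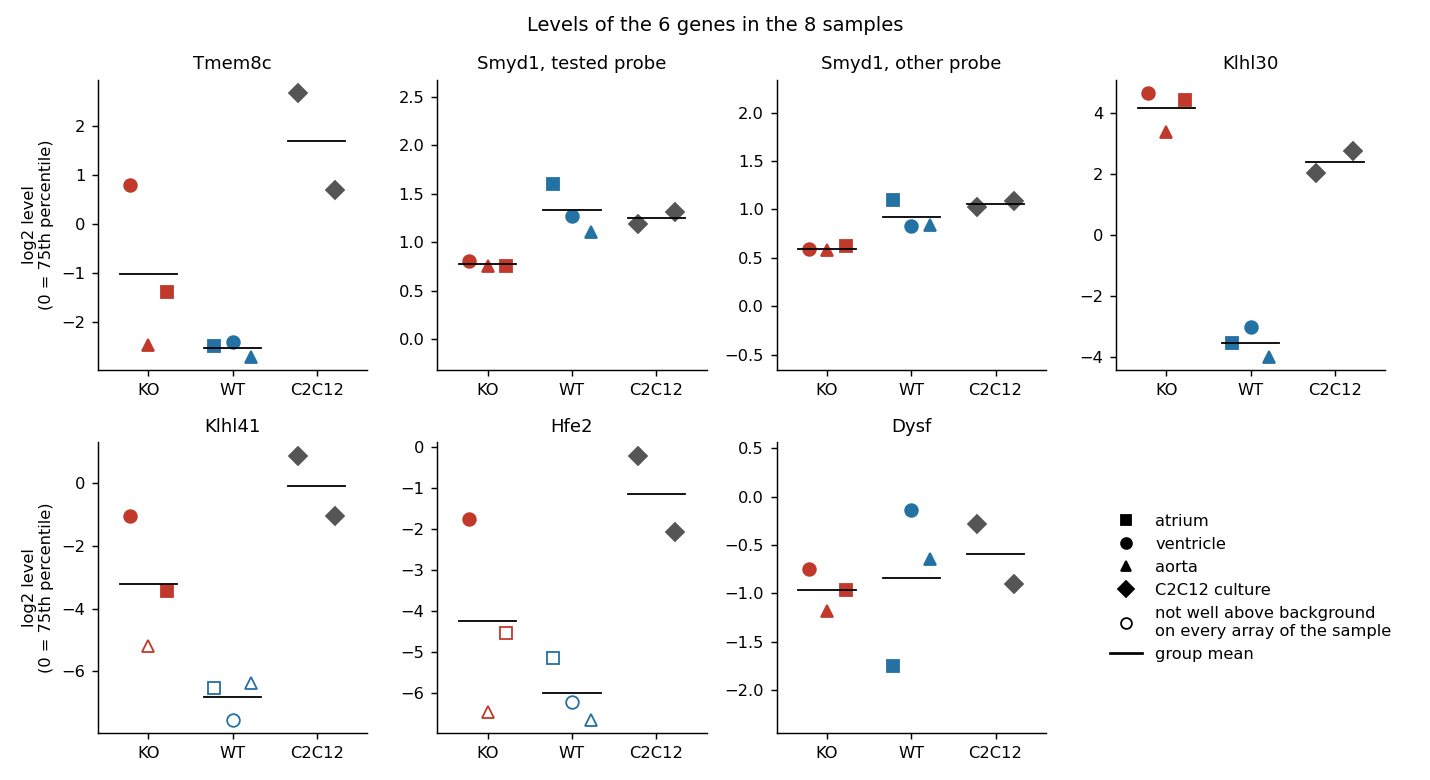
Level of each probe (vertical axis, log2 relative to the 75th percentile of the array) in the 3 KO, 3 WT and 2 C2C12 samples; symbols give the heart region, bars the group mean, open symbols samples whose probe was not well above background on every array. Klhl30, Klhl41 and the Smyd1 probes show no overlap between KO and WT, as in 49.2% of all genes tested. For Klhl41 the WT and KO aorta readings are not above background, so their separation is not measured. Tmem8c, Klhl30, Klhl41, Hfe2 and Dysf are highest among KO samples in ventricle and lowest in aorta. For Hfe2 neither the atrium nor the aorta reading is above background, so which is lower is not settled.

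Tmem8c, which encodes the fusion protein myomaker, varied more among the KO-labelled samples than between genotypes. Its probe lies at chr2:26884083-26884142 on the minus strand (build mm8) and is named 1110002H13Rik in the scanner output. The level was 0.80 in KO-labelled ventricle, -1.40 in atrium and -2.48 in aorta. The WT-labelled atrium, ventricle and aorta samples read -2.49, -2.40 and -2.71, and C2C12 samples 1 and 2 read 2.68 and 0.70. The KO-labelled aorta sample lay inside the narrow WT range, and the KO-labelled ventricle sample lay just above C2C12 sample 2, so KO-labelled cells overlapped both other groups. The probe was well above background on 11 of 11 arrays.

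Order by group mean placed C2C12 first (1.69 ± 1.39, SD, n = 2), KO-labelled cells next (-1.02 ± 1.67, n = 3) and WT-labelled cells last (-2.54 ± 0.16, n = 3). Only the ends of that order differed: WT minus C2C12 was -4.23 (SE 0.95), 18.7-fold lower, with limma adjusted p = 0.016. That call was lost without C2C12 sample 1 (-3.24, adjusted p = 0.117) or the WT-labelled aorta sample (-4.14, adjusted p = 0.051). KO minus WT was 1.51 (SE 0.79, 95% interval -0.42 to 3.45, adjusted p = 0.205), and -0.46 with the slide set as a block (adjusted p = 0.918). The sign of that difference therefore changed with the block. The block rests on C2C12, whose own level was 2.68 on the slides of the KO-labelled samples and 0.70 on the slide of the WT-labelled samples. KO minus C2C12 was -2.72 (SE 0.95, adjusted p = 0.301). The summed skeletal muscle markers were likewise highest in KO-labelled ventricle and lowest in aorta, and their part in the Tmem8c levels was not tested. The share of all genes with that order was not counted, here or for the members below.

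Smyd1 encodes a muscle methyltransferase that works with the myosin chaperones in thick filament assembly. Its 2 probes, at chr6:71144922-71144981 (the one tested) and chr6:71144901-71144960 on the minus strand (mm8), share 39 bases and are not independent measurements. The tested probe read 0.80, 0.76 and 0.75 in KO-labelled ventricle, aorta and atrium. It read 1.60, 1.27 and 1.11 in the WT-labelled samples of atrium, ventricle and aorta, whereas C2C12 was at 1.19 and 1.31. Each KO-labelled sample thus lay below each of the others, and WT-labelled cells and C2C12 overlapped. Groups of KO and WT did not overlap in 49.2% of all genes tested.

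The Smyd1 difference was small, -0.56 (SE 0.16, 95% interval -0.96 to -0.16), and its limma adjusted p of 0.049 sat at the threshold. It was lost in 12 of 18 alternatives, among them the slide block (-0.43, adjusted p = 0.576), the heart region as a block (adjusted p = 0.090) and 5 of the 6 fits without 1 sample. The other probe gave -0.33 (adjusted p = 0.134). Against C2C12, KO-labelled cells were at -0.48 (SE 0.17, adjusted p = 0.317) and WT-labelled cells at 0.08 (95% interval -0.33 to 0.49, adjusted p = 0.784).

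Klhl30, a member of the kelch-like family, had the largest fitted difference between the genotypes among the members tested. Its probe lies at chr1:93192584-93192643 on the plus strand (mm8). The level was 4.66, 3.38 and 4.44 in KO-labelled ventricle, aorta and atrium and 2.02 and 2.76 in C2C12. In WT-labelled atrium, ventricle and aorta it was -3.54, -3.03 and -3.99. All KO-labelled samples were above both C2C12 samples, and all WT-labelled samples were below them. Samples did not overlap in 37.9% of genes for KO against C2C12 and in 54.1% for WT against C2C12. The WT-labelled levels were low but measured, since the probe was well above background on 11 of 11 arrays.

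KO minus WT was 7.68 (SE 0.41, 95% interval 6.69 to 8.68), a 205-fold difference, with limma adjusted p = 9.44e-05. It was 8.42 with the slide set as a block (adjusted p = 0.0043) and stayed called in each of the 18 alternatives, between 6.78 and 8.42. WT minus C2C12 was -5.91 (SE 0.46), 60.3-fold lower, with adjusted p = 0.00015. KO minus C2C12 was 1.77 (SE 0.46, 95% interval 0.69 to 2.85), which did not pass (adjusted p = 0.164). KO-labelled arrays exceeded the C2C12 array of their own slide by 1.40 to 2.66 on slide 1 and by 1.32 to 2.61 on slide 3. These slides are not independent, since their ventricle, aorta and C2C12 arrays were averaged as the same samples. Both use C2C12 sample 1, which read lower than sample 2. The order of the KO-labelled samples, ventricle, atrium, aorta, was that of the summed skeletal muscle markers (189, 105 and 50.4), whose part was not tested.

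Klhl41 encodes a kelch-like protein of the sarcomere that stabilises nebulin, a thin filament protein, and is mutated in nemaline myopathy. Its probe falls within chr2:69475512-69478920 on the plus strand (mm8), an interval of 3409 bases that exceeds the length of a probe. Of the 6 genes, 3 had entries in the RefSeq promoter table (GRCm38.p6): Klhl41, Smyd1 and Dysf. The 250 bases before the start of Klhl41 and of Smyd1 are shown because the former gene varied most among the samples of these 3 and the latter little. Capitals mark matches to the E-box CANNTG, the general form of the sites that myogenic bHLH factors bind, and to CTANNNNTAG, a core shared by many MEF2 sites. CANNTG and CTANNNNTAG read the same on both strands and none of the matches overlapped. The Klhl41 stretch is chr2:69669870-69670119 (plus strand), and that of Smyd1 is chr6:71262282-71262531 (minus strand).
Klhl41: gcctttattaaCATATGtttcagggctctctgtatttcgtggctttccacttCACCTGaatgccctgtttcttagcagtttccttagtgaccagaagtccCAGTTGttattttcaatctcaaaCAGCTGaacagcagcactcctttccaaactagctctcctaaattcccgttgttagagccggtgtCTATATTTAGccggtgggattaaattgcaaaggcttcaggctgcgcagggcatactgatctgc
Smyd1: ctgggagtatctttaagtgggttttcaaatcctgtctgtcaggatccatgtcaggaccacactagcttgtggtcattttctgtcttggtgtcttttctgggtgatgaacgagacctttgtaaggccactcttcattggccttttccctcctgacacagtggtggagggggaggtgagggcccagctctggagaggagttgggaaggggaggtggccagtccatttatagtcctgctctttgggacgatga

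The 300 bases searched, 250 before and 50 after the start, held 4 E-boxes in Klhl41, which begin 239, 198, 150 and 127 bases before the start. The nearest of them reads CAGCTG, the form that MyoD and myogenin bind well. At least 3 E-boxes occurred in 17.6% of the 32851 promoters of that table, at least 1 in 72.3%, and CAGCTG in 16.3%. The match CTATATTTAG begins 63 bases before the start of Klhl41, and 3.69% of promoters held this motif. Neither motif was found in the Smyd1 window. Dysf had 2 starts, of which 1 window held no match and the other a single E-box. A match describes the letters only and binding was not measured.

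The Klhl41 probe read -1.03 in KO-labelled ventricle, -3.44 in atrium and -5.18 in aorta, and 0.88 and -1.05 in C2C12. In WT-labelled atrium, ventricle and aorta it read -6.53, -7.55 and -6.39, not well above background on any array. It was above background on 3 of 5 KO-labelled arrays, both of ventricle and that of atrium, on neither of aorta, and on 3 of 3 C2C12 arrays. Folds given as at least set the mean of the brighter group against the lowest signal well above background on each WT array. For KO-labelled cells this gave 3.22-fold, but the aorta readings in that mean were not above background. The 3.22 is therefore not a strict lower bound. Without the aorta sample, the bound was 6.36-fold over ventricle and atrium. The value rests on the ventricle sample, since without that sample it was 1.51-fold. The fitted difference had limma adjusted p = 0.044, which became 0.743 with the slide set as a block, 0.083 with the region as a block and 0.065 to 0.125 without any 1 WT-labelled sample. The probe reached the 3 arrays needed for testing through KO-labelled arrays alone, 2 of which were averaged as the ventricle sample. Its call is therefore not support independent of the high KO-labelled readings. Without the KO-labelled ventricle or atrium sample the probe was on too few arrays to be tested. C2C12 was at least 28.2-fold above WT-labelled cells (adjusted p = 0.0056), with a bound of 14.4-fold without C2C12 sample 1 and 55.0-fold without sample 2. KO minus C2C12 was -3.13 (SE 1.16, adjusted p = 0.330), a value that includes KO-labelled aorta readings not above background. The KO-labelled order, ventricle, atrium, aorta, was also that of the summed skeletal muscle markers, whose part was not tested.

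Hfe2 encodes hemojuvelin, a co-receptor for bone morphogenetic proteins in the repulsive guidance molecule family, made in liver, heart and skeletal muscle and known for its control of iron balance. Its probe lies at chr3:96613595-96613654 on the plus strand (mm8). It read -1.76 in KO-labelled ventricle, where both arrays were above background, and -4.54 and -6.48 in KO-labelled atrium and aorta, where none was. The 2 averaged arrays of KO-labelled aorta differed by 1.58 at this probe, which is near background there. In WT-labelled samples it read -5.15, -6.23 and -6.66, above background on no array, and in C2C12 -0.21 and -2.08, above background on 3 of 3 arrays. Measured signal was thus limited to KO-labelled ventricle and C2C12.

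With 2 arrays above background, Hfe2 was below the filter for KO against WT. No difference is given there, since most of its readings in both genotypes were not above background, and limma adjusted p was 0.462 without the filter. C2C12 was at least 13.6-fold above WT-labelled cells (adjusted p = 0.031), with a bound of 7.10-fold without C2C12 sample 1 and 25.9-fold without sample 2. That call was lost without either C2C12 sample, KO-labelled atrium, or WT-labelled ventricle or aorta (adjusted p = 0.054 to 0.183). KO minus C2C12 was -3.12 (SE 1.30, adjusted p = 0.390), a value that includes KO readings not above background.

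Dysf encodes dysferlin, the ferlin of muscle membrane repair whose loss causes a limb-girdle muscular dystrophy. The probe falls within chr6:84171525-84172783 on the plus strand (mm8), an interval of 1259 bases. It read -0.75, -1.19 and -0.97 in KO-labelled ventricle, aorta and atrium and -0.28 and -0.91 in C2C12. In WT-labelled atrium, ventricle and aorta it read -1.75, -0.13 and -0.65, and the probe was above background on 11 of 11 arrays. The WT-labelled samples spanned the values of both other groups. The KO-labelled order, ventricle, atrium, aorta, was that of the summed skeletal muscle markers, as for Tmem8c, Klhl30 and Klhl41, and their part was not tested. How many of all genes share this order was not counted, so it is not shown to be particular to these members. KO minus WT was -0.13 (SE 0.42, 95% interval -1.14 to 0.89, limma adjusted p = 0.848), KO minus C2C12 -0.37 (95% interval -1.45 to 0.70) and WT minus C2C12 -0.25 (95% interval -1.32 to 0.83). These intervals do not show that the groups were alike. KO minus WT turned to 0.23 without the WT-labelled ventricle sample.

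**Figure D2:**
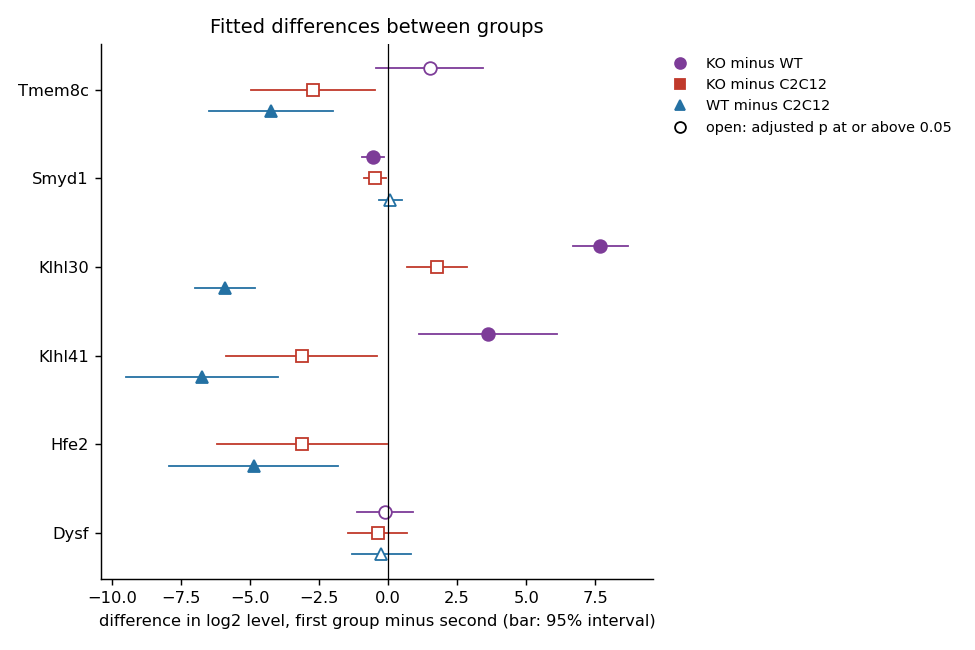
Fitted difference in log2 level between 2 groups (horizontal axis) for each gene, with its unadjusted 95% interval; filled symbols have an adjusted p under 0.05. Klhl30 is at 7.68 for KO minus WT, Hfe2 was not tested there, and for Klhl41 and Hfe2 the WT side is near background, so that the fitted value is not a measured fold. The KO means of Klhl41 and Hfe2 also include readings not above background.

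Heart region was compared within each genotype, with 1 sample per region. In KO-labelled cells, Tmem8c was 3.27 higher in ventricle than in aorta (9.67-fold), Klhl30 1.27 higher (2.42-fold) and Dysf 0.43 higher. For Smyd1 the value was 0.04, inside the 0.16 by which its 2 aorta arrays differed. For Klhl41 and Hfe2 the aorta side was not above background. In WT-labelled cells the same differences were 0.31 for Tmem8c, 0.97 for Klhl30, 0.51 for Dysf and 0.17 for Smyd1. Over both genotypes together, Klhl30 was 1.12 higher in ventricle than in aorta (SE 0.23), and its limma adjusted p was 1. No gene of 15002 passed in this contrast, where 440 had an unadjusted p under 0.05, nor for atrium against the other regions, where 1203 did. Each region sat at 1 array position, the same on all slides, so position and region cannot be told apart.

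**Figure D3:**
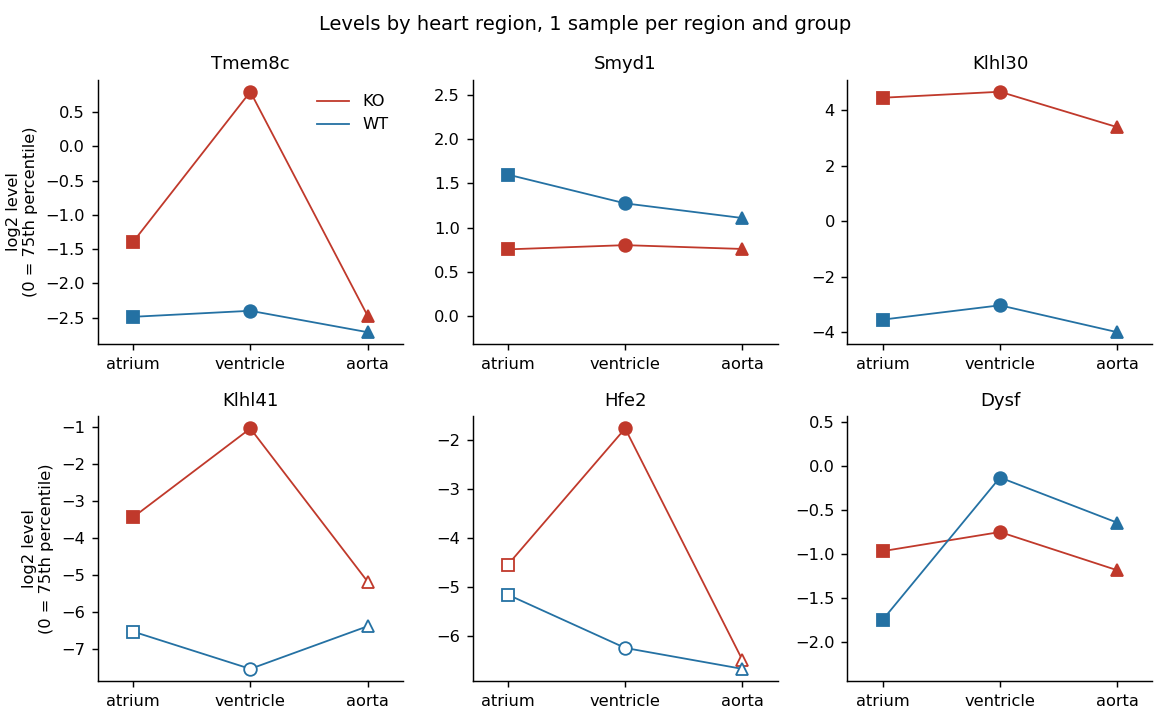
Log2 level of each gene by heart region in the KO and WT samples, with 1 sample per point; lines only join the samples of a genotype and open symbols were not well above background on every array. Tmem8c, Klhl41 and Hfe2 peak in KO ventricle, Klhl30 reads 3.38 to 4.66 in the KO regions, and Dysf is lowest in WT atrium.

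Relatives of the 6 genes were called in both directions. Among kelch-like relatives, Klhl40, which also stabilises thin filament proteins, read -1.20, -3.50 and -2.90 in KO-labelled ventricle, aorta and atrium and was above background on no WT array. It was at least 5.18-fold higher in KO-labelled cells (limma adjusted p = 0.0035, and 0.445 with the slide set as a block), or 3.26-fold without the ventricle sample. For Klhl31 the bound was 5.42-fold higher or more, with adjusted p = 0.0048 (0.340 with the block), and 3.50-fold without the ventricle sample. Of the 4 kelch-like genes listed, Klhl30 was the one detected on WT arrays.

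Among SET and MYND domain relatives, Smyd2 went the other way from Smyd1. It read 4.32 to 4.43 in KO-labelled and 3.66 to 3.83 in WT-labelled samples, a rise of 0.60 (SE 0.13, limma adjusted p = 0.016, and 0.514 with the block). Smyd3 differed by 0.71 (adjusted p = 0.053). Hfe2's relatives Rgma and Rgmb were both lower in KO-labelled cells, by -1.84 (SE 0.40, adjusted p = 0.019, and 0.217 with the block) and -1.91 (SE 0.45, adjusted p = 0.024, and 0.267 with the block). Rgma read 1.17 to 1.98 in KO-labelled and 2.54 to 3.88 in WT-labelled samples.

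Myof, the ferlin myoferlin, which is linked to myoblast fusion, was lower in KO-labelled cells by -0.71 (SE 0.20, limma adjusted p = 0.042, and 0.308 with the block). Its 3 probes gave -0.71, -0.86 and -0.73. The call did not hold in 10 of 18 alternatives. Otof was above background on 4 of 11 arrays, Fer1l4 on 2 and Fer1l5 on 0, and none of them passed the filter for KO against WT. Mymx, the partner of myomaker in fusion, and Fer1l6 were not matched to a probe.

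**Figure D4:**
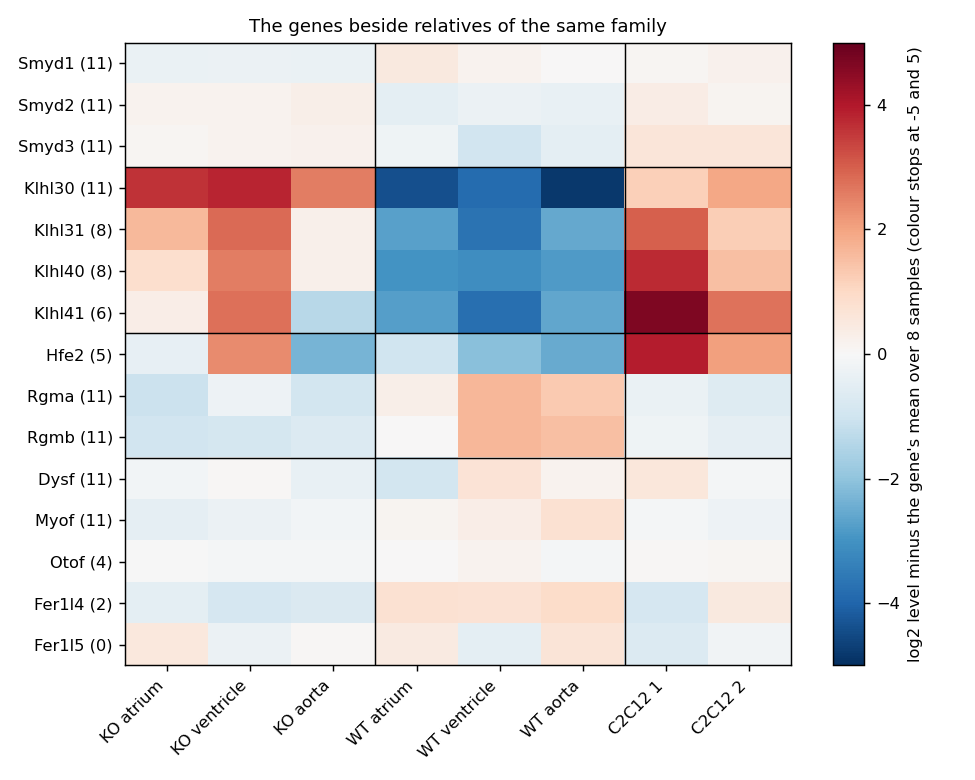
Log2 level of each gene minus its mean over the 8 samples (colour) for the members and relatives, with the number of arrays well above background of 11 in brackets; where a gene had several probes, the brightest is drawn. The kelch-like genes are low in all 3 WT columns, whereas Rgma and Rgmb are higher there than in KO.

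Of 40 genes listed for myoblast fusion, 34 were tested in KO against WT, with 8 higher and 1 lower in KO-labelled cells. That is 26.5% called, beside 29.7% of all genes, so the count is near the background. The median difference was 0.14, beside -0.06 for all genes tested. Among those with the largest differences, Cdh15 (M-cadherin), which joins myoblasts, read 4.10 to 5.54 in KO-labelled samples and 4.05 and 4.36 in C2C12. It was above background on no WT array and at least 872-fold higher in KO-labelled cells (limma adjusted p = 2.50e-05, and 0.0020 with the slide block). Jam2, a junctional adhesion molecule, read 2.66 to 2.90 in KO-labelled samples against -6.72 to -4.19 in WT-labelled samples, where 1 of 3 arrays was above background (adjusted p = 0.00039).

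The chemokine receptor Cxcr4 was higher by at least 6.12-fold (limma adjusted p = 0.00014) and the metalloprotease Adam12 at least 4.92-fold higher (adjusted p = 0.00071). The adhesion proteins Kirrel3 and Ncam1 rose by 4.13 (adjusted p = 0.021) and 1.44 (adjusted p = 0.031), with Kirrel3 above background on 1 of 3 WT arrays. The 8 probes of Ncam1 disagreed, from -0.26 to 1.44. With the slide block, 3 of 34 genes of the fusion list were higher, Cdh15, Jam2 and Cxcr4, and none lower. Over all 15807 genes tested with that block, 509 were higher and 382 lower. Against C2C12, 10 of the 34 were lower in WT-labelled cells, beside 13.2% of all genes, and 2 were higher. That is 35.3% called, beside 27% of all genes. Of the lower genes, Cdh15, Cxcr4 and Adam12 were above background on no WT array and were tested through the other groups alone. None of the 34 was called in KO-labelled cells, where only 1.25% of all genes were, so that count does not set the list apart.

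**Figure D5:**
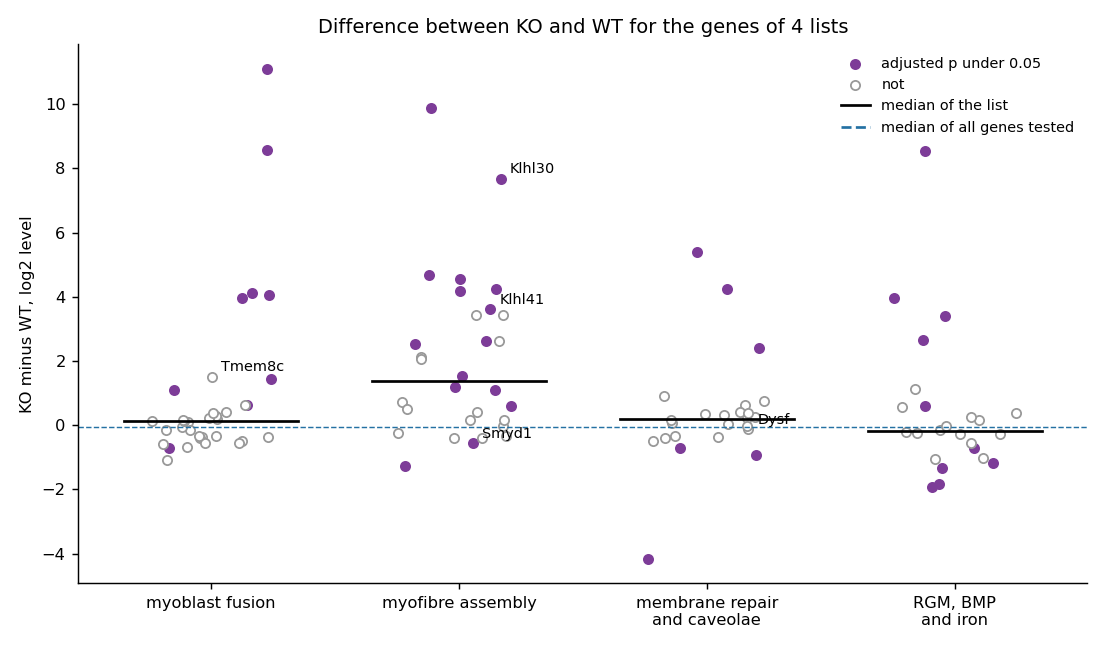
KO minus WT difference in log2 level for each tested gene of 4 lists (horizontal spread is only to separate points), with called genes filled, list medians as bars and the median of all genes dashed. The assembly list has a median of 1.37 and the other lists have medians of -0.18 to 0.19, with the median of all genes at -0.06. Some differences set KO levels against WT readings not above background.

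Of 36 genes listed for myofibre assembly, 30 were tested, with 13 higher and 2 lower in KO-labelled cells and a median difference of 1.37. The share called was 50%, beside 29.7% of all genes (13.7% higher and 16.1% lower). Of the higher genes, Nrap, Klhl31, Klhl40, Klhl41, Capn3 and Asb2 were above background on no WT array. They passed the filter through KO-labelled arrays alone, so their calls are not support independent of the high readings there. Their differences in the median use WT readings not above background. Leaving out Smyd1, Klhl30 and Klhl41, 11 of 27 were higher and 1 was lower, with a median of 1.19. With the slide block the counts over the whole list were 2 higher and 0 lower of 34, with a median of 0.44. Over all 15807 genes tested with that block, 509 were higher and 382 lower, with a median of -0.04. The list count with the block is thus near that of all genes. The small heat shock protein Hspb1 differed by 9.89 (SE 0.57, limma adjusted p = 0.00012, and 0.0090 with the block), and was above background on 1 of 3 WT arrays. Its other probe was above background on none. Nrap, an anchoring protein of early myofibrils, was higher by at least 13.1-fold (20.2-fold without the aorta sample, adjusted p = 0.0021), and the muscle calpain Capn3 at least 5.12-fold higher (adjusted p = 0.0027). Neither held with the block (0.244 and 0.104). The lower genes were Smyd1 and Unc45a, the general relative of the muscle myosin chaperone Unc45b, which was chosen for mention after its value was seen (-1.27, adjusted p = 0.0024). In WT-labelled cells 22 of the 34 assembly genes tested were lower than in C2C12, beside 13.2% of all genes, and 2 were higher, and the median difference was -3.32. Some of the lower genes, among them Nrap, Klhl40 and Klhl41, were above background on no WT array and were tested through the other groups alone. None of the 34 was called between KO-labelled cells and C2C12, where only 1.25% of all genes were, so that count does not set the list apart.

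Of 32 genes of membrane repair and caveolae, 24 were tested, with 3 higher and 3 lower and a median of 0.19. The share called, 25%, was near the 29.7% of all genes. The muscle caveolin Cav3 read 1.32 in KO-labelled ventricle, -4.54 in aorta and -2.02 in atrium and was above background on no WT array. The KO-labelled mean was at least 8.92-fold higher, with limma adjusted p = 0.034 (0.519 with the block). Without the ventricle sample that bound was 3.08-fold and without the aorta sample 23.5-fold. Cavin4, the muscle cavin, was 2.41 higher (adjusted p = 0.0082, and 0.327 with the block), and Capn3 is also on this list. The lower genes were Myof and the widely expressed caveolar genes Cavin2 and Cav1. Cavin2 read 2.38 to 2.71 in KO-labelled and 6.67 to 6.84 in WT-labelled samples, a difference of -4.16 (SE 0.15, adjusted p = 2.65e-05, and 0.0025 with the block). Cav1 differed by -0.93 (adjusted p = 0.041, and 0.334 with the block).

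Of 34 genes around hemojuvelin, bone morphogenetic protein signalling and iron, 24 were tested, with 5 higher and 5 lower and a median of -0.18. The share called was 41.7%, beside 29.7% of all genes (13.7% higher and 16.1% lower). The iron exporter ferroportin, Slc40a1, read 3.31, 0.71 and 0.31 in KO-labelled ventricle, aorta and atrium and 0.09 and 1.68 in C2C12. It was above background on no WT array and at least 81.5-fold higher in KO-labelled cells (limma adjusted p = 0.00090, and 0.023 with the block), or 42.7-fold without the ventricle sample. The ligand Bmp4 differed by 3.95 (adjusted p = 0.0012), with 2 of 3 WT arrays above background. The receptor Bmpr1b was higher by at least 2.49-fold (adjusted p = 0.00079). For the iron sensor Tfr2 the same measure gave 1.39-fold (adjusted p = 0.0042). With 4 of 5 KO-labelled arrays above background for Tfr2, that value is not a strict lower bound. Slc40a1, Bmpr1b and Tfr2 were above background on no WT array, so KO-labelled arrays alone let them be tested. Bmp4 and Bmpr1b held with the block (0.021 and 0.043), and Tfr2 did not (0.056). Among the lower genes were Rgma and Rgmb. The iron hormone genes Hamp and Hamp2, which hemojuvelin controls in liver, did not pass the filter for KO against WT.

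Genes of most like pattern were taken as those with the smallest root mean square difference from a member over the 8 samples, each profile centred on its own mean, among 15807 genes. For Tmem8c they were Fn3k (0.335) and Ankrd2 (0.347), a muscle ankyrin repeat protein, and Hfe2 ranked 20th at 0.569. Ankrd2 read -2.72 in KO-labelled ventricle, -5.46 in aorta and -4.69 in atrium. The aorta and atrium readings lay below the lowest signal well above background on their arrays. For Klhl41 they were Csrp3 (0.293), the muscle LIM protein, and Gprc5c (0.297). For Hfe2 they were an unnamed transcript, TC1651696 (0.470), and Myom1 (0.473), a protein of the sarcomere's M-band. For Klhl30 they were Ptprd (0.370) and BC039142 (0.509). Ptprd read 0.43 to 1.98 in KO-labelled samples and -6.86 to -6.40 in WT-labelled samples. These WT readings lay below the lowest signal well above background on their arrays. For Smyd1 they were Atn1 (0.073) and NAP122790-1 (0.082), and for Dysf Bloc1s1 (0.190) and Pan2 (0.194). Fn3k, Ankrd2, Csrp3 and Gprc5c were above background on 6 of 11 arrays, and TC1651696 and Myom1 on 5. Their likeness to the members therefore includes readings not above background. This measure favours genes that vary little when the member varies little, and the profiles share arrays and scaling, so these values are descriptions only.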

How the data were processed

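Each deposited scanner file holds the intensity of every spot, read with Agilent Feature Extraction (version 9.5.3.1 in the submitters' processing notes). Background was subtracted and spatial trends were removed within each array, signals near background carry surrogate values, and arrays were not scaled to each other, per the file headers. The series-wide table, also deposited, gives log2 values, which equalled log2 of the scanner signal within 0.01 for 99.7 to 99.8% of probes, with column medians of 5.44 to 5.77, so its scale is settled and it carried no centring.

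Control spots (1639 of 45018) and outlier spots (39 to 120 per array) were left out, which kept 41121 of 41174 probes. Names were updated through RefSeq (GRCm38.p6) for 24348 probes by accession, 6293 by symbol and 2419 by synonym, and 8061 kept the name in the scanner output. Positions of probes come from the array design (mm8). Levels were log2 signals with the 75th percentile of their array subtracted. Probes well above background on at least 3 fitted arrays were tested, 1 per gene (the highest mean), with lmFit and eBayes of limma 3.58.1 in R 4.3.3, and Benjamini-Hochberg adjusted p under 0.05 was called. The 6 heart samples entered KO with WT, and all 8 samples entered both comparisons against C2C12. Near-identical arrays were averaged first (3 of 16 pairs). Each array holds 1 sample and none of the deposited columns was unused.

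The fit was tested on simulated data for KO with WT, over 18143 probes well above background on every array. These are not the 15002 genes of the reported fit, which include dimmer probes. Of 100 probes changed by 2 on the log2 scale, 77 were recovered. Of 100 changed by 4, 96 were recovered, with 8 false calls. Recovery and false calls were not tested for genes near background in a group, such as Klhl41, Klhl40 and Cav3. Alternatives covered the joining of arrays, background correction, scaling, the filter, the probe per gene, slide, region and each sample left out.

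The 6 genes and the gene lists were chosen with earlier results of these data known. Named are the 6 genes, relatives of them, up to 6 called genes of largest difference per list and the 2 genes of most like pattern per member. Tables and plots were made with Python 3.11.15, numpy 2.4.6, pandas 2.3.3 and matplotlib 3.10.9.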

Additional observations from a re-analysis of the deposited data

Results flagged for a closer look

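Tmem8c in atrium against the other regions had opposite signs in KO-labelled and WT-labelled cells. In KO-labelled cells the atrium level was -0.56 relative to the mean of ventricle and aorta, on the log2 scale, and in WT-labelled cells it was 0.068. The WT-labelled value is smaller than the SD of 0.161 among the WT-labelled samples, so its sign is not settled. With 1 sample per region the difference between the genotypes was not tested.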

How the results depend on the processing

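Among KO against WT differences of the members, Klhl30 stayed called in all 18 alternatives, Klhl41 in 8 of 15 and Smyd1 in 6 of 18. Tmem8c reversed to -0.38 when every array was its own sample with slide as a block, and to -0.46 with the slide set as a block. Dysf reversed to 0.228 without WT replicate 2, with a range of -0.579 to 0.228 without 1 sample. The number of members called, 3 in the comparison as reported, fell to 1 (Klhl30) with every array and slide as a block, with no filter on dim probes, with the heart region as a block and with the slide set as a block, and was 1 to 2 when each sample was left out. The number of genes called, 4461, became 2523 with every array and slide as a block, 2793 with normexp background correction, 891 with the slide set as a block, and 2643 to 5873 without 1 sample. For KO against C2C12, 198 genes became 1629 with every array as its own sample, which counts near-identical arrays as separate, 99 with no filter, 45 with normexp and 13 to 464 without 1 sample. Members called there were 2 with every array as its own sample, Klhl30 and Smyd1. For WT against C2C12, 4265 genes became 6661 with every array as its own sample, 2508 with normexp and 2273 to 5624 without 1 sample, with 2 to 4 members called. In that comparison Smyd1 reversed to -0.0584 without WT replicate 1 (range -0.0584 to 0.188 without 1 sample). Dysf reversed to 0.0651 without C2C12 replicate 1 and within slide 2, and to 0.204 without WT replicate 1 (range -0.603 to 0.204). Against the value over both genotypes, Klhl41 in ventricle minus aorta was -1.16 in WT alone, where neither reading was above background, so that sign has no meaning. In atrium minus the other regions, Tmem8c was 0.0682 in WT alone, Smyd1 -0.0262 in KO alone, Klhl30 -0.0312 in WT alone and Klhl41 -0.33 in KO alone. Unless given, the cause was not tested. Scaling by the array median moved the median of all genes in KO minus WT from -0.06 to 0.05. At the probe of the reported fit, no relative or list gene named reversed its KO minus WT direction in any alternative that tested it. Other probes were not followed there, and those of Ncam1 ranged from -0.26 to 1.44. The labels give no replicate numbers. Pairing the genotypes by heart region as a block called 3644 genes. Klhl41 and Hfe2 are limited by signal near background in WT-labelled cells, Hfe2 and Klhl41 in KO-labelled aorta, and every comparison by 2 or 3 samples per group.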
